A study of Mus musculus with 9 samples.

Results

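Transcripts of the genes that build cell-cell junctions were measured by RNA sequencing in mouse embryonic stem cells with and without Sirt6, a nuclear deacylase that acts on histones. The genes were the 106 of 23366 rows of the count table whose symbols belong to the claudins, the other tight junction proteins (occludin, the MARVEL domain proteins, the Tjp scaffolds and F11r), the classical and related cadherins, the catenins, the desmosomal cadherins and plaque proteins, the connexins, Epcam, and the Crumbs and Par polarity proteins. These families were chosen by differences between knockout and wild type that had been seen earlier in the same libraries. Every knockout value below is therefore a description of the libraries that selected the families and is not independent evidence of a direction.

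All groups share the 129 SvJae F1 strain and passage 21 and were grown in serum-containing medium with leukaemia inhibitory factor (LIF). The series has 9 samples in 3 groups of 3, which are wild type, SIRT6 knockout, and wild type under glucose deprivation. This comparison is of the first 2 groups, and the third is not analysed here. The labels do not say how Sirt6 was removed, whether the knockout is 1 clone, or whether replicates were separate cultures, so the p-values rest on the spread of these 6 libraries alone, and that spread may be technical.

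Tight junctions seal the space between epithelial cells. Claudins form the strands, which occludin, Marveld2 and Marveld3 join, and the Tjp (ZO) scaffolds tie them to actin. In adherens junctions, cadherins of adjacent cells bind each other and anchor to actin through beta- and alpha-catenin. In desmosomes, desmogleins and desmocollins are anchored to intermediate filaments through plakoglobin, plakophilins and desmoplakin. Connexins form gap junction channels that pass small molecules between cells. Embryonic stem cells grow as compact epithelial colonies held together by E-cadherin (Cdh1).

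Total counts ran from 20107037 to 29267115 per library. Levels are given as CPM, a gene's counts scaled to a common library size after edgeR's TMM adjustment, for replicates 1 to 3 of each group in order, and a gene was called higher or lower when its adjusted p was under 0.05 over all 14988 tested genes. Sirt6 itself had 348, 341 and 342 counts in wild type and 12, 6 and 6 in the knockout. Of 10 tested pluripotency markers 4 rose and 3 fell, with sums of 6145 to 6743 CPM in wild type and 6491 to 8177 CPM in the knockout. Pou5f1 and Nanog averaged 1651 and 365 CPM in wild type and 1199 and 292 CPM in the knockout. Sox2 and Tdgf1 rose, from 324 and 793 CPM to 428 and 1468 CPM. All 10 markers were present in both groups. The 5 sex chromosome markers differed between the lines, 4 being higher in the knockout and 1 lower. Ddx3y averaged 7.74 CPM in wild type and 91.5 CPM in the knockout, and Xist 38.2 and 4.06 CPM. Kdm5d was at 0 CPM in every wild-type library and averaged 2.41 CPM in the knockout. The loss of Sirt6 and other differences between the lines therefore cannot be told apart in any comparison below.

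Markers of other cell types also moved with the knockout. Over all tested genes 27.9% were called higher and 27.8% lower, and the counts of called markers are a description beside that background. Of 13 tested markers of primitive and parietal endoderm, 12 fell and 0 rose, and the summed level of the whole list was 619 to 651 CPM in wild type and 195 to 249 CPM in the knockout. Of 8 tested markers of embryonic fibroblasts, 7 rose, with sums of 5.73 to 6.41 CPM and 34.9 to 43.1 CPM, and Lum was at 0 in every library. Primed epiblast markers rose at 8 of 10 and fell at 2 (sums of 191 to 194 and 267 to 341 CPM). Trophectoderm markers rose at 2 and fell at 2 of 5 tested (33.5 to 36 and 14.5 to 19.9 CPM). Endothelial markers rose at 4 and fell at 2 of 6 (49.2 to 53.1 and 61.2 to 69.1 CPM, Emcn at 0), and markers of stratified epithelium rose at 1 of 2 (30.9 to 32.7 and 44.5 to 52.5 CPM, Trp63 at 0). Most of the endothelial sum was Pecam1 (37.8 and 50.4 CPM), and most of the stratified sum was Sfn (28.2 and 44.5 CPM). Most of the primed epiblast sum was Dnmt3b (138.1 and 195.7 CPM). In wild type most of the trophectoderm sum was Tead4, which fell (28.97 and 7.54 CPM), so the lower sum mainly describes that gene. Markers of 2-cell-like cells rose at 5 of 6 (2.20 to 2.59 and 22.8 to 26.1 CPM, Tcstv3 at 0). The 5 that rose passed the filter on low counts through the knockout alone and had to rise. The same held for the fibroblast markers Col1a2, Col6a1, Col6a2 and Acta2, and for Fgf5, Krt7 and Kdr of the other lists. Gata6, of the endoderm list, passed through wild type alone and had to fall. The part of these cell types in the junction results was not tested, and in bulk RNA fewer cells of a type and less RNA per cell cannot be told apart.

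Of the 106 genes, 65 passed the filter on low counts. Of these, 21 were higher in the knockout, 20 were lower and 24 were not called. Over all tested genes 55.7% were called, 27.9% higher and 27.8% lower, so most tested genes differed, and the 63.1% of the junction genes is printed beside that background with nothing read from it. The groups did not overlap in 48 of the 65, where 63.2% of all tested genes did not overlap. The median log2 fold change was -0.06 over the 65 genes and 0.01 over all tested genes. With total counts as the scaling, 58.5% of the called junction genes were higher in place of 51.2%, and 62.3% of all called genes in place of 50.1%; the median of all genes moved by 0.12. Of the 65, 6 passed only through the knockout libraries (Cdh10, Cdh15, Cldn1, Ctnna2, Gja3 and Gjb2) and 2 only through wild type (Cdh17 and Cdh5). The 41 genes that did not pass averaged at most 0.637 CPM in either group, and 8 of them had no count in any library.

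**Figure D1:**
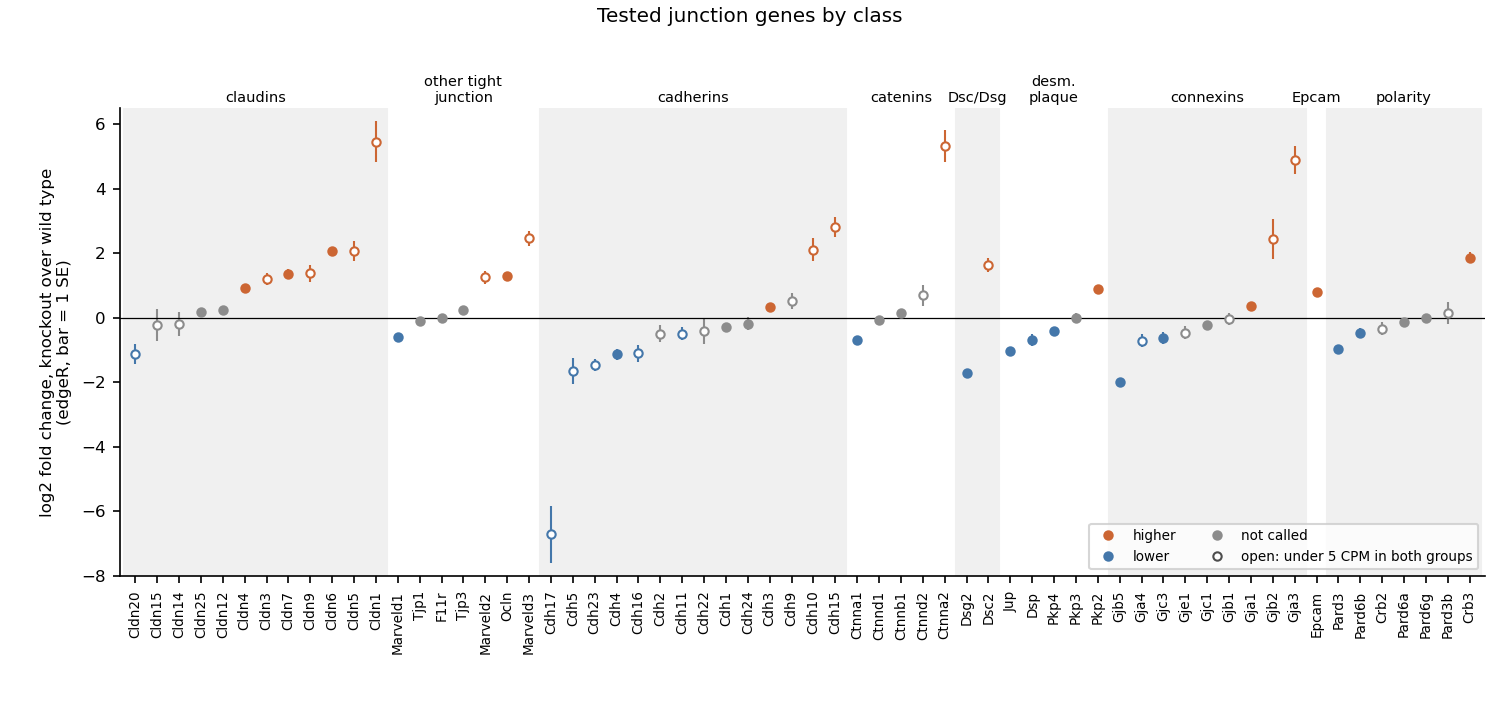
Log2 fold change of 62 tested junction genes (knockout over wild type, 3 libraries each), grouped by class; points are edgeR's fitted values, bars are 1 standard error, and open points mark genes under 5 CPM in both groups. Claudins lie mostly above 0, with Cldn6 at 2.07, while among the connexins Gjb5 lies at -2.00 and Gja1 at 0.38.

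Each of the 3 largest classes held genes that rose and genes that fell. Among the claudins that passed the filter 7 rose and 1 fell of 12, among the cadherins 3 rose and 6 fell of 14, and among the connexins 3 rose and 5 fell of 11. Genes that passed through 1 group alone had to differ in that direction. Without them the counts were 6 and 1 of 11 claudins, 1 and 4 of 10 cadherins, and 1 and 5 of 9 connexins. These counts are a description, and no difference between classes was tested. Summed over each class, claudins went from 103 ± 4.89 to 187 ± 6.17 CPM (SD, n = 3) and connexins from 206 ± 5.05 to 129.7 ± 2.23 CPM. Desmosomal cadherins went from 80.1 ± 4.59 to 27.7 ± 3.30 CPM. Most of that sum was Dsg2 (78.7 and 23.9 CPM), while Dsc2 rose. Cadherins summed to 329 ± 8.49 and 276 ± 44.3 CPM and catenins to 1883 ± 16.2 and 1709 ± 198 CPM, and the catenin sums of the groups overlapped.

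Cldn6, Cldn4 and Cldn7 were higher in the knockout. Cldn6, a claudin typical of embryonic epithelia, had 12.9, 12.1 and 13.1 CPM in wild type and 51.7, 51.9 and 56.6 CPM in the knockout, a log2 fold change of 2.07 ± 0.10. Cldn4, which limits ion passage in tight epithelia, had 27.2, 30.7 and 29.7 CPM in wild type and 60.3, 49.3 and 54.9 CPM in the knockout (0.91 ± 0.11). Cldn7, found along the lateral membrane of many epithelia, had 3.06, 3.10 and 3.79 CPM in wild type against 7.93, 8.89 and 8.86 CPM in the knockout (1.36 ± 0.14). The groups did not overlap for any of these genes, and the highest wild-type library stood well under the lowest knockout library.

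The other claudins that rose were at lower levels. Cldn3, Cldn9 and Cldn5, the last known from the endothelial barrier, changed by 1.20 ± 0.20, 1.37 ± 0.25 and 2.07 ± 0.32 and averaged 2.71, 2.20 and 1.57 CPM in the knockout. Cldn1, the barrier claudin of the skin, had 1 count in all of wild type against 60 in all of the knockout, 60.4 times as many per library size (95% interval 10.4 to 2423, counting error only). Of the tested claudins, Cldn20 fell (-1.13 ± 0.30; adjusted p = 0.0504 without wild-type replicate 1). Among the claudins with too few counts for the test, Cldn19 had 49 counts in all of wild type against 15 in all of the knockout, and Cldn22 had 19 against 4. The knockout libraries of both lay below the wild-type libraries. However, 100% of the exon bases of Cldn22 also lie in exons of Wwc2, on either strand, so its counts are uncertain. Cldn12, the claudin with the highest CPM in wild type, was at 35.6, 35.5 and 40.1 CPM in wild type and 45.3, 43.0 and 42.8 CPM in the knockout. Its groups did not overlap, but it was not called (0.24 ± 0.10, adjusted p = 0.0535), though 5 of its 15 alternative fits called it (0.0152 to 0.438 over all of them). The remaining 3 tested claudins, Cldn14, Cldn15 and Cldn25, lay between -0.23 and 0.17 and overlapped, and the symbol Cldn25 is ambiguous between Cldn25-ps and Cldnd1 in RefSeq.

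Because claudin transcripts differ in length, their makeup was compared per kilobase of exon. In wild type Cldn4 took 42.2% ± 2.15 of the claudin level per kilobase (SD, n = 3), Cldn12 23.0% ± 0.924 and Cldn6 19.4% ± 0.825. In the knockout Cldn6 took 37.7% ± 2.08, Cldn4 36.6% ± 2.31 and Cldn12 12.6% ± 0.438. Cldn4 was thus ahead of Cldn6 in every wild-type library, while in the knockout their shares differed by less than their spread.

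Among the other tight junction genes Ocln, Marveld1, Marveld2 and Marveld3 were called, and the scaffolds Tjp1 and Tjp3 were not. Occludin (Ocln), a strand protein of the MARVEL family, had 5.07, 5.65 and 5.02 CPM in wild type and 13.3, 12.5 and 12.4 CPM in the knockout (1.28 ± 0.12). Marveld2 (tricellulin), which sits where 3 cells meet, and Marveld3 rose by 1.25 ± 0.21 and 2.46 ± 0.22, to 4.13 and 4.89 CPM. Marveld1 moved the other way, from 18.1, 16.8 and 17.7 to 12.5, 10.6 and 11.5 CPM (-0.60 ± 0.11). The scaffold Tjp1 (ZO-1) had 180.0, 172 and 170.1 CPM in wild type and 187, 169 and 129.9 CPM in the knockout (-0.10 ± 0.13, adjusted p = 0.526). Knockout replicate 3 was its lowest library. Tjp3 and F11r (JAM-A, an adhesion receptor of the tight junction) were at 0.25 ± 0.13 and 0.00 ± 0.09 and were not called, although Tjp3 was called in 3 of its 15 alternative fits.

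**Figure D2:**
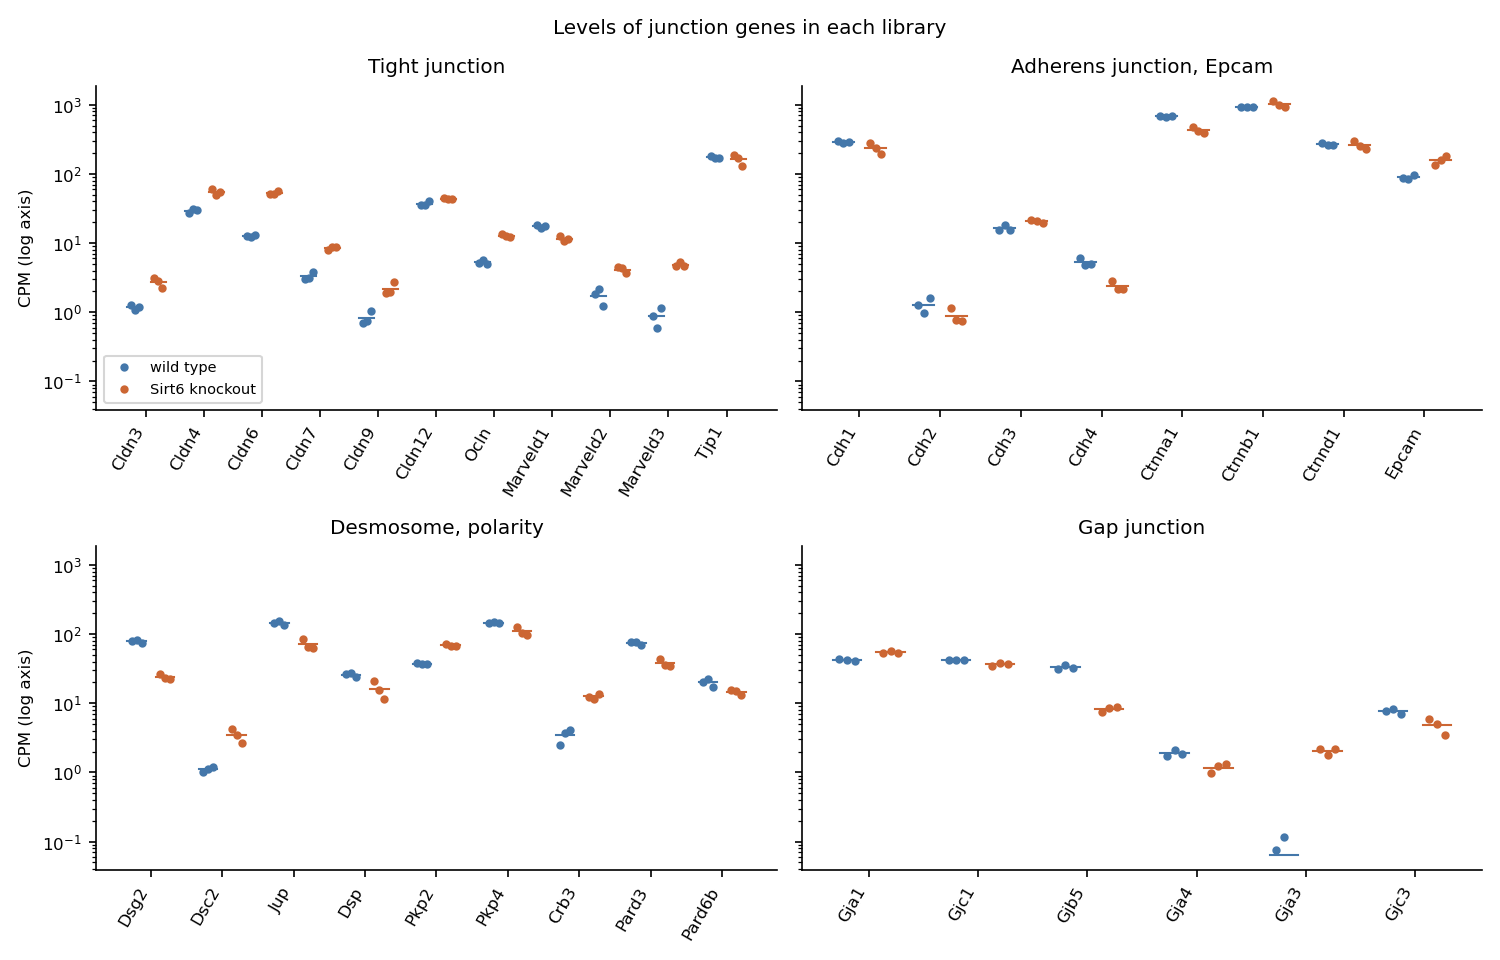
CPM of 34 junction genes in each of the 6 libraries on a log axis (points, 3 per group; lines, group means; values of 0 are not drawn). Cldn6 separates at 12.1 to 13.1 against 51.7 to 56.6 CPM and Gjb5 at 31.7 to 35.3 against 7.46 to 8.86 CPM, while the 2 groups overlap for Ctnnb1 and Tjp1.

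In adherens junctions the main cadherin was not called. E-cadherin (Cdh1) had 299.5, 284 and 285 CPM in wild type and 279, 239 and 197 CPM in the knockout. Every knockout library was below every wild-type library, but the knockout libraries were spread (-0.28 ± 0.13, adjusted p = 0.0791). The gene was called without knockout replicate 1 (-0.40, adjusted p = 0.00214) and after removal of length and GC trends (0.00419). Cdh1 lies on chromosome 8, where the median log2 fold change of 788 tested genes was -0.24, beside 0.01 over all tested genes. Of the 9 tested junction genes there, 3 were called higher and 4 lower (Cdh5, Cdh11, Cdh16 and Pard3). The part of the chromosome in these changes was not tested. P-cadherin (Cdh3), which is also on chromosome 8, had 15.5, 18.1 and 15.7 CPM in wild type and 21.9, 20.8 and 19.5 CPM in the knockout (0.34 ± 0.11, adjusted p = 0.0204). This call was lost without wild-type replicate 1 (0.0884), wild-type replicate 3 (0.0908) or knockout replicate 2 (0.0562). N-cadherin (Cdh2), the mesenchymal and neural cadherin, stayed low at 1.27, 0.962 and 1.58 CPM in wild type and 1.13, 0.778 and 0.751 CPM in the knockout, and the groups overlapped (-0.49 ± 0.28, adjusted p = 0.155). Per kilobase, Cdh1 made up 88.9% ± 0.566 of the cadherin level in wild type and 86.2% ± 1.17 in the knockout, so E-cadherin dominated in all 6 libraries.

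The cadherins that fell were at low levels. R-cadherin (Cdh4) went from 6.11, 4.81 and 4.98 to 2.83, 2.17 and 2.20 CPM (-1.13 ± 0.17). Cdh23, known from the tip links of hair cells, Cdh16 (kidney cadherin) and Cdh5 (VE-cadherin of endothelium) changed by -1.47 ± 0.18, -1.10 ± 0.27 and -1.65 ± 0.39 and averaged at most 3.43 CPM in wild type; Cdh5 passed the filter through wild type alone. Cdh17 (liver-intestine cadherin) had 39 counts in all of wild type and 0 in all of the knockout, at least 12.9-fold lower when the knockout is set to 3 counts in all. Cdh11 was called lower (-0.49 ± 0.19, adjusted p = 0.0483), but not in 10 of its 14 alternative fits, where the adjusted p reached 0.165. Cdh15 (M-cadherin of muscle) and Cdh10 rose by 2.80 ± 0.31 and 2.11 ± 0.35, to 1.64 and 0.882 CPM, and both passed the filter through the knockout alone. The other tested cadherins, Cdh9, Cdh22 and Cdh24, lay between -0.41 and 0.52 and were not called.

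Among the catenins, the one that links the complex to actin fell. Alpha-catenin (Ctnna1) had 696, 668 and 695 CPM in wild type and 478, 414 and 389.7 CPM in the knockout (-0.68 ± 0.11), with no overlap. Beta-catenin (Ctnnb1), which binds the cadherin tail and also carries Wnt signals, had 922, 942 and 913 CPM in wild type and 1143, 999.9 and 918 CPM in the knockout and was not called (0.14 ± 0.12, adjusted p = 0.327); 15.1% of its exon bases overlap other genes. The ranges of the groups overlapped. P120-catenin (Ctnnd1), which keeps cadherins at the membrane, had 283, 265 and 263 CPM in wild type against 302, 251 and 226 CPM in the knockout and overlapped (-0.06 ± 0.12), and 61.2% of its exon bases lie in a read-through gene as well, so its level is uncertain. Ctnna2, the neural alpha-catenin, had 2 counts in all of wild type against 95 in all of the knockout, 47.8 times as many per library size (95% interval 12.9 to 400.3). Per kilobase, Ctnna1 went from 33.2% ± 0.759 of the catenin level to 22.3% ± 0.275 and Ctnnb1 from 55.4% ± 0.896 to 65.8% ± 0.295.

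The 2 tested desmosomal cadherins moved in opposite directions. Dsg2, the desmoglein of simple epithelia, had 79.1, 83.3 and 73.7 CPM in wild type and 26.7, 22.8 and 22.1 CPM in the knockout (-1.72 ± 0.11). Its partner cadherin Dsc2 had 1.01, 1.13 and 1.20 CPM in wild type against 4.19, 3.48 and 2.65 CPM in the knockout (1.65 ± 0.22). Neither gene's groups overlapped, and the ratio of Dsg2 to Dsc2 per kilobase, which does not depend on library scaling, went from 45.5 ± 5.60 to 4.52 ± 0.70 (SD, n = 3). The other 7 desmosomal cadherins did not pass the filter.

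In the desmosome plaque, plakoglobin (Jup), which binds the desmosomal cadherins, had 144, 153 and 137 CPM in wild type and 85.7, 65.0 and 62.6 CPM in the knockout (-1.02 ± 0.13). Desmoplakin (Dsp), the link to intermediate filaments, had 26.5, 27.2 and 23.9 CPM in wild type against 20.7, 15.6 and 11.3 CPM in the knockout (-0.69 ± 0.18), and the knockout libraries were widely spread. After removal of length and GC trends its change was -0.44, and it was still called. Plakophilin 2 (Pkp2) moved the other way, from 38.1, 36.4 and 36.9 to 70.8, 66.8 and 67.9 CPM (0.88 ± 0.09). Plakophilin 4 (Pkp4), a p120-related protein, went from 145, 147 and 145 to 128, 104 and 96.4 CPM (-0.42 ± 0.11); this call was lost with total counts as the scaling (adjusted p = 0.0864) and without knockout replicate 2 (0.0503). Pkp3 was at 0.01 ± 0.13 and was not called. Per kilobase, Jup went from 37.4% ± 1.21 to 23.4% ± 1.22 of the plaque level and Pkp2 from 11.6% ± 0.438 to 27.4% ± 2.51.

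**Figure D3:**
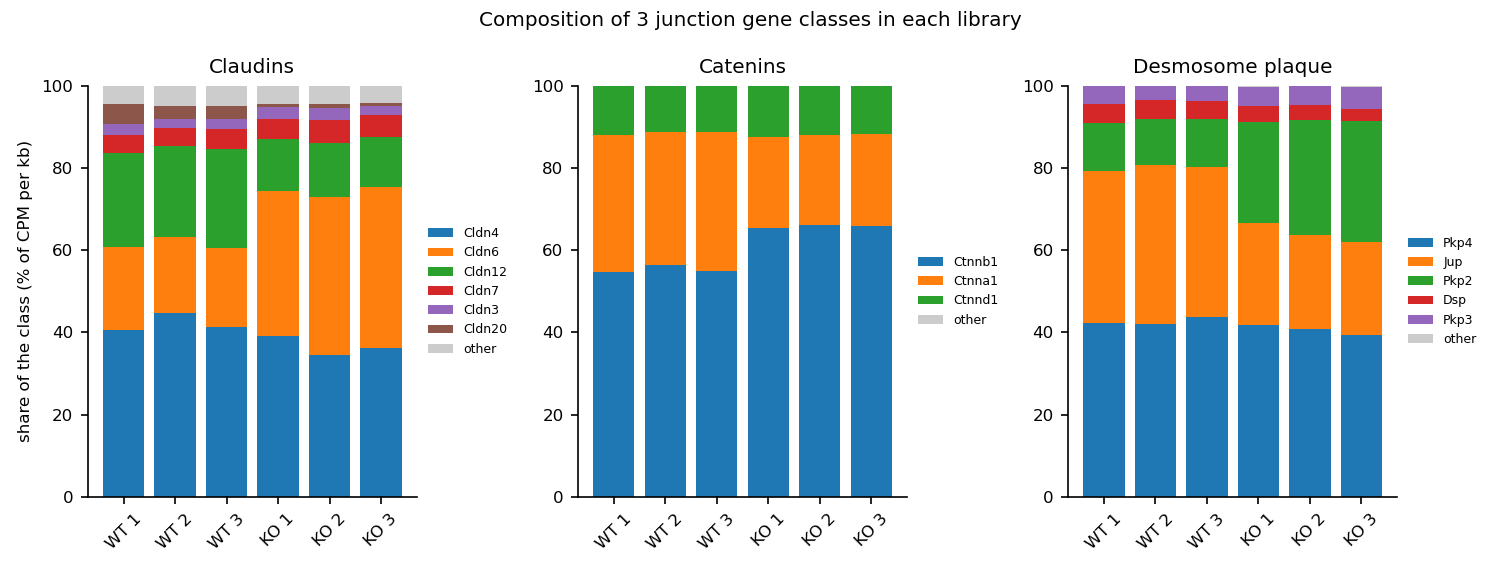
Share of each gene in the summed CPM per kilobase of its class, in each of the 6 libraries (WT, wild type; KO, Sirt6 knockout), for claudins (without Cldn25, which has no length), catenins and desmosome plaque genes. The knockout libraries show larger shares of Cldn6, Ctnnb1 and Pkp2 and smaller shares of Cldn12, Ctnna1 and Jup.

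Among the connexins, Gjb5, which is known from placenta and skin, had 31.7, 35.3 and 32.1 CPM in wild type and 7.46, 8.48 and 8.86 CPM in the knockout (-2.00 ± 0.11). Its highest knockout library was far below its lowest wild-type library. Gja4, a vascular and oocyte connexin, went from 1.89 to 1.17 CPM (-0.71 ± 0.21), a call lost without wild-type replicate 2 (adjusted p = 0.0628).

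Gja1 (connexin 43), the most widely expressed connexin, had 43.6, 41.4 and 40.6 CPM in wild type and 54.0, 56.3 and 53.1 CPM in the knockout (0.38 ± 0.09). Gjc1 (connexin 45) had 42.6, 41.5 and 42.1 CPM in wild type against 34.3, 38.0 and 36.8 CPM in the knockout and was not called (-0.21 ± 0.09, adjusted p = 0.0713; called after removal of length and GC trends, 0.000279). Gjc3 fell from 7.60, 8.20 and 6.99 to 5.98, 4.995 and 3.50 CPM (-0.63 ± 0.18). Gja3 (connexin 46 of the lens) had 5 counts in all of wild type against 157 in all of the knockout, and its neighbour Gjb2 (connexin 26) had 6 against 34. Both passed the filter through the knockout alone. Their fitted changes rest on few wild-type counts: Gja3 was at 4.88 ± 0.44 and at 5.54 without wild-type replicate 3, and Gjb2 at 2.45 ± 0.61 and at 3.40 without wild-type replicate 2. Gje1 and Gjb1 were at -0.46 ± 0.19 and -0.04 ± 0.19 and were not called, Gje1 being called in 4 of its 15 alternative fits. Of the connexin level per kilobase, Gja1 took 5.34% ± 0.432 in wild type (SD, n = 3) and 16.5% ± 0.768 in the knockout.

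Epcam, an adhesion molecule of epithelia that binds claudin 7, had 87.6, 85.7 and 97.6 CPM in wild type and 137, 157 and 180.2 CPM in the knockout (0.81 ± 0.12), with no overlap. Crb3, the Crumbs protein of the apical membrane, had 2.50, 3.77 and 4.09 CPM in wild type against 12.3, 11.5 and 13.8 CPM in the knockout (1.86 ± 0.18). The polarity scaffold Pard3, which organises tight junctions, went the other way, with 76.1, 77.2 and 70.2 CPM in wild type and 44.1, 35.5 and 34.4 CPM in the knockout (-0.97 ± 0.11). Its partner Pard6b had 20.5, 22.6 and 17.2 CPM in wild type against 15.5, 15.2 and 12.9 CPM in the knockout (-0.46 ± 0.13); the call was lost with total counts as the scaling (adjusted p = 0.0682) and without wild-type replicate 2 (0.0600). Pard6a, Pard6g, Pard3b and Crb2 lay between -0.33 and 0.15 and were not called. Per kilobase, Crb3 went from 9.06% ± 2.20 to 31.6% ± 2.57 of the level of this class.

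Some junction genes that rose lie beside each other, with no protein-coding gene between them in the GRCm38 annotation. These were Cldn6 with Cldn9, Cldn4 with Cldn3, and Ocln with Marveld2. Their families were picked from these same knockout differences, so the shared direction of neighbours is a description and was not tested. Over the genome, both genes were called in 3450 neighbouring protein-coding pairs, and 63.2% of those pairs shared a direction. Gja3 with Gjb2, and Cdh11 with Cdh5, are also neighbours, but Gja3, Gjb2 and Cdh5 passed the filter through 1 group alone. Cdh9, which was not called, lies beside Cdh10, which rose and passed through the knockout alone. Of these neighbours, only Cdh11 shared any 50-base word with another gene of the GRCm38 annotation (3.23% of its words).

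**Figure D4:**
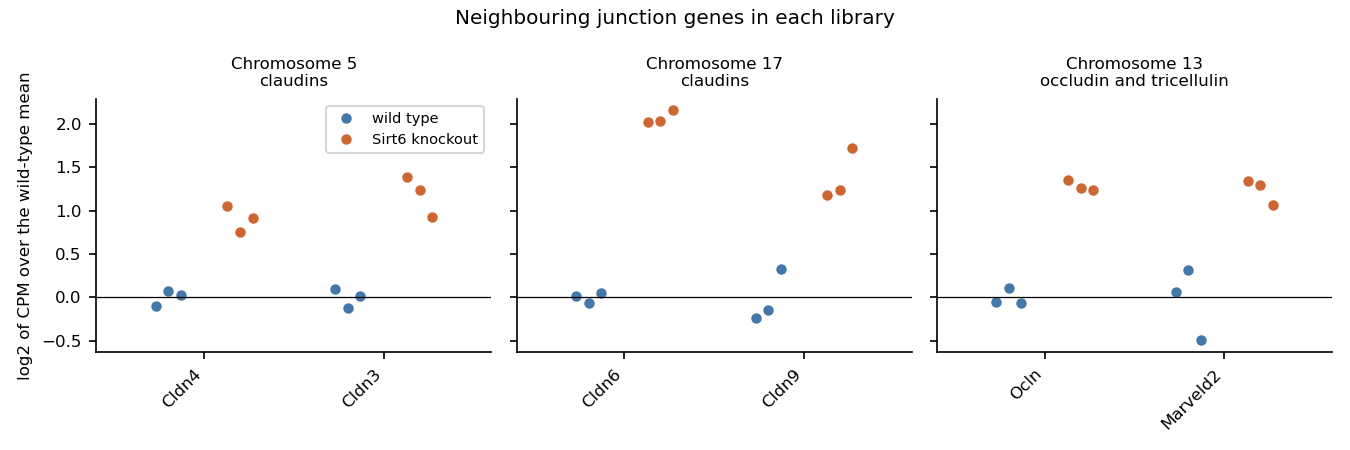
CPM of neighbouring junction genes in each library, as log2 over the wild-type mean of that gene (points, 3 libraries per group; the line marks the wild-type mean). All knockout libraries lie above 0 for the claudin pairs and for Ocln and Marveld2.

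Promoter sequence upstream of the RefSeq and GENCODE start sites was taken from RefSeq (GRCm38.p6) for the neighbouring claudins, because they moved together, and for the connexin Gjb5, which fell. An entry was held for 66 of the 106 genes, among them Cldn3, Cldn4, Cldn6 and Gjb5; Cldn9 is named only. The sequences are written 5′ to 3′ on the strand of the gene, and capitals mark matches on either strand to a GC box (GGGCGG), a SNAI and ZEB E-box (CACCTG), an AP-2 site (GCCNNNGGC), a TATA box (TATAAA) and a CCAAT box (CCAAT).
Cldn3 upstream of the start, chr5:134985964-134986213, plus strand: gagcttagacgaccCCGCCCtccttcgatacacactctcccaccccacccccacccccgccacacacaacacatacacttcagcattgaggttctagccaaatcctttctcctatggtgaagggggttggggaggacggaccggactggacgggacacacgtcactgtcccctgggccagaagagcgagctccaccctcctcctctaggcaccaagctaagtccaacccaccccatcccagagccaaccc
Cldn4 upstream of the start, chr5:134946935-134947184, minus strand: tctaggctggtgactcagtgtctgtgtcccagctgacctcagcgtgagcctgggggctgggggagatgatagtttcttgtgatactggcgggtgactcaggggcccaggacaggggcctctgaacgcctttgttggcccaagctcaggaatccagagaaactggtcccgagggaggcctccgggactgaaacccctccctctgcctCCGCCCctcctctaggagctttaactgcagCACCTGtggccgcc
Cldn6 upstream of the start, chr17:23679115-23679248, plus strand: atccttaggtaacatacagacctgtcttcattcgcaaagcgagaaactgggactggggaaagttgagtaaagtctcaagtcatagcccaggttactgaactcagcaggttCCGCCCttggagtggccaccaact
Gjb5 upstream of the start, chr4:127358182-127358414, minus strand: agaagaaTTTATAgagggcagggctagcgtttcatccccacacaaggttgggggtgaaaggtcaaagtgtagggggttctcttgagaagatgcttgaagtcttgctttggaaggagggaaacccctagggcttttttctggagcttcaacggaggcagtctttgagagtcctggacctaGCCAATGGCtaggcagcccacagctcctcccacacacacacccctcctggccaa
Cldn3, Cldn4 and Cldn6 each held 1 GC box, Cldn4 also held 1 E-box, and Gjb5 held 1 TATA box, 1 AP-2 site and 1 CCAAT box that overlaps it. Over all 32851 promoters of the table, read over 250 bases before to 50 after the start, 32.7% held a GC box, 17.2% the E-box, 13.7% an AP-2 site, 12.4% a TATA box and 33.8% a CCAAT box. The stretches printed here are the upstream part only, and shorter for Cldn6 and Gjb5, so their counts and these shares do not cover the same lengths. A match is a description of the letters and not evidence of binding.

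Other genes of the same structures were read from lists that do not overlap the symbol rule. Their counts are a description beside the 27.9% of all tested genes that were higher and the 27.8% that were lower. No list was tested as a set. Tight junction plaque and tricellular proteins rose at 7 and fell at 1 of 12 tested: the cingulin relative Cgnl1 rose by 1.66 ± 0.15 and the tricellular protein Lsr by 0.67 ± 0.09, while Ildr1, also tricellular, changed by -1.23 ± 0.10. Nectins, afadin and JAM relatives rose at 2 and fell at 5 of 9, with Pvrl1 (nectin 1) at -2.05 ± 0.13, Jam3 at 1.34 ± 0.11 and Esam at -1.01 ± 0.16. Actin linkers of adherens junctions rose at 3 and fell at 6 of 10. Among them the alpha-actinins Actn4 and Actn1, which crosslink actin, changed by -1.96 ± 0.12 and -1.41 ± 0.10, and Lima1, which binds alpha-catenin, by 1.67 ± 0.12.

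Cadherin superfamily genes outside the rule rose at 2 and fell at 5 of 10 tested, and the giant cadherin Fat1 went from 515 ± 37.7 to 163 ± 34.2 CPM (-1.66 ± 0.15). Celsr1 and Celsr3, of planar cell polarity, changed by -1.56 ± 0.17 and -0.99 ± 0.17. Desmosome-linked and keratin genes rose at 4 and fell at 1 of 7, and the simple-epithelium keratins Krt18, Krt19 and Krt8 rose by 2.28 ± 0.14, 2.34 ± 0.16 and 0.89 ± 0.10. Polarity partners rose at 4 and fell at 3 of 11, with Amotl2 at -0.94 ± 0.13, Llgl2 at -0.79 ± 0.13 and the atypical kinase Prkci at -0.57 ± 0.11. Pannexins and connexin partners rose at 2 and fell at 1 of 4. The 2 that rose, Panx2 and Nov, passed the filter on low counts through the knockout alone and had to rise. The same held for Clstn2 of the cadherin superfamily list and Krt7 of the keratin list. Consortin (Cnst), which binds connexins on their way to the membrane, changed by -1.19 ± 0.12. Relatives and proteases of Epcam rose at 3 and fell at 1 of 7, with the protease Adam10 at -1.07 ± 0.11, Adam17 at 0.55 ± 0.11 and Prss8 at 0.78 ± 0.12.

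Regulators of epithelial genes did not move one way. Epithelial transcription and splicing regulators rose at 2 and fell at 3 of 12 tested: Klf5 and Klf4, which are also regulators of naive pluripotency, changed by -2.44 ± 0.10 and -0.97 ± 0.10, and the AP-2 factor Tfap2c by 1.12 ± 0.11. Mesenchymal regulators rose at 1 and fell at 3 of 7: the repressor Zeb1 changed by -0.63 ± 0.12, Tcf4 by -0.88 ± 0.10 and Snai3 by 1.78 ± 0.17. The medians of these lists were -0.02 and -0.18, beside 0.01 over all tested genes.

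The authors' deposited table of their own comparison held an adjusted p for 93 of the 106 genes and called 45 of them, 25 higher and 20 lower, where it called 45.8% of all genes with an adjusted p. Of the 41 genes called here, 39 were also called in the authors' deposited table, all in the same direction. The authors' deposited table did not call Cdh11 and Gja4, and it called Cdh13, Cdh18, Cldn19, Cldn23, Gja5 and Pkp1, which were not tested here because of their low counts.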

How the data were processed

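Total RNA of mouse embryonic stem cells was sequenced, and the authors deposited whole-number counts per gene symbol, not normalized, for 3 wild-type and 3 Sirt6 knockout libraries. TopHat2 2.0.10, HTSeq 0.6.1, DESeq2 and mm9 appear in the submitters' processing notes without role or order; how strand was treated, the gene annotation and any filter are not given in the sources used. The authors' deposited table of their own comparison has, per the file headers, a log2 fold change with its error, a mean signal, a test score, and p-values before and after adjustment.

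Groups came from the sample titles. Counts were tested with edgeR 4.0.16 in R 4.3.3 (TMM, filterByExpr, glmQLFit and glmQLFTest, two-sided, Benjamini-Hochberg over all tested genes). The value after ± beside a log2 fold change is its standard error, the size of the change divided by the square root of F. Levels per kilobase used exon lengths of GENCODE M21 (GRCm38), matched for 105 of the 106 genes; that build is not the authors', and coordinates are RefSeq's. Scripts were tested on simulated counts. The least different pair of libraries had a chi-square per degree of freedom of 3.73, so none was counted as a duplicate. Wild-type pairs lay at 3.73 to 11.2 and knockout pairs at 20.8 to 87.6, so the knockout libraries differed more among themselves.

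The genes, lists and naming rule were chosen with earlier results of these data known. Named genes were a fixed set of 13, up to 6 called genes per class with at least 5 CPM, the most abundant gene of each class and up to 3 called genes per list by smallest adjusted p; Marveld3, Dsc2, Gjc1 and the genes of neighbouring pairs were singled out after their values were seen. Some genes that the rule names are not reported here, though they count in the totals. Alternatives were 2 other scalings, 2 filters, DESeq2 1.42.0, limma-voom (limma 3.58.1), the replicate block, each library left out and 2 other thresholds. Omission of chromosomes 1, 8, X and Y was another, and chromosomes 1 and 8 had the lowest median log2 fold changes (-0.30 and -0.24). Removal of length and GC trends was added after the data were seen.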

Additional observations from a re-analysis of the deposited data

How the results depend on the processing

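With a log2 fold minimum of 1 added to the threshold, 3238 genes and 27 junction genes were called in place of 8345 and 41, and 11 junction genes were lower in place of 20; this setting asks for more by construction. In no other setting did a count move by over 1.5 times. Each library left out in turn gave 38 to 48 called junction genes, 20 to 24 of them higher and 17 to 24 lower, and 6986 to 9876 genes in all; the highest counts came without knockout replicate 1. Of the 41 called junction genes, 35 kept their call in every one of the 15 alternative fits that tested them, and the exceptions were Cdh3, Cdh11, Cldn20, Gja4, Pard6b and Pkp4; 10 of the 24 uncalled genes were called in at least 1 fit. No named gene that was called changed direction. Fitted changes of Cldn1, Gja3 and Gjb2 moved by over 1.5 times when 1 wild-type library was left out (Cldn1 7.32 and Gja3 5.54 without replicate 3, Gjb2 3.40 without replicate 2), and that of Cdh17 was -6.10 with DESeq2 and -4.70 with limma-voom, against -6.71.

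The replicate block called 9352 genes and 44 junction genes, 22 higher and 22 lower. It lowered the adjusted p of Cdh1 to 0.0159 (-0.29), a call that the fit without it did not make. Deviations of same-numbered libraries correlated at 0.208, -0.0250 and 0.201 across genes, and those of differently numbered libraries at -0.216 to 0.0346. These values do not settle whether the numbers pair the samples, and the main fit treated the samples as unpaired. In 15 junction genes both groups had at most 3 counts in all, so a change was not detectable at this depth.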

Other observations

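Several junction genes outside the test had counts in 1 group and almost none in the other. Cdh13, a cadherin without the usual cell-internal part, had 32 counts in all of wild type against 2 in all of the knockout, 15.9 times as many per library size (95% interval 4.06 to 137, counting error only). Cdh18 had 2 and 29 counts, a ratio of 14.6 (3.69 to 126). The plakophilin Pkp1, known from stratified epithelium, had 1 and 20 counts, a ratio of 20.1 (3.22 to 834), and Cldn23 had 2 and 20, a ratio of 10.1 (2.44 to 88.8). Gja5 (connexin 40 of heart and vessels) had 2 and 16 counts, a ratio of 8.05 (1.89 to 72.2), but 21.0% of its 50-base words occur in another gene.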
